A study of Mus musculus with 96 samples.

Results

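The 31 genes described here make, move and store cholesterol in mouse intestinal organoids. They were taken by symbol from the expression tables of the series, in which all 31 were found among 55536 gene identifiers. By role, 7 encode enzymes of the mevalonate arm of cholesterol synthesis and 11 encode enzymes of the squalene and sterol arm. Another 4 control SREBP, the transcription factor that switches synthesis on. A further 5 act in uptake and transport within the cell, and 4 in efflux and esterification.

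Cells build cholesterol from acetyl-CoA through mevalonate, isoprenoid units, squalene and lanosterol. When sterol in the endoplasmic reticulum runs low, SCAP carries the SREBP precursor to the Golgi, where it is cut into an active transcription factor. When sterol is plentiful, INSIG proteins hold SCAP and SREBP back. The absorptive enterocyte also takes up dietary sterol through NPC1L1, pumps plant sterol and excess cholesterol back into the lumen through ABCG5 and ABCG8, and esterifies cholesterol with SOAT2 for export in chylomicrons.

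The organoids, self-organising epithelial cultures, came from C57BL/6 mice of 4 genotypes. Control organoids were APC+/+;BMAL1+/+, Bmal1-null organoids APC+/+;BMAL1-/-, Apc-min organoids APCmin/-;BMAL1+/+ and Apc-min Bmal1-null organoids APCmin/-;BMAL1-/-, and both APCmin/- genotypes are labelled as adenoma organoids. Wnt signalling is held in check by Apc. The circadian clock needs Bmal1, a DNA-binding factor listed under the symbol Arntl. All cultures received 0.1 µM dexamethasone, a glucocorticoid that sets cells to a common clock phase, for 1 h, and RNA was collected at 12 time points, every 2 h from 24 to 46 h afterwards. The tables hold 22 libraries per genotype, 88 in all. Each genotype was grown from 2 organoid lines, but the labels do not tie libraries to lines. The p-values below therefore reflect variation among libraries, and variation among lines is not covered. The medium was EN for both Apc-min genotypes and ENR, with the Wnt agonist R-spondin added, for the rest, so that genotype and medium cannot be told apart in any Apc comparison. Apc genotype also goes with the order of the library numbers and with the share of reads too short to map, which averaged 1.3% and 1.31% in the Apc-min genotypes, 6.73% in control and 6.00% in Bmal1-null organoids. Where a time point has 2 libraries, the one with the lower library number and the one with the higher number are called lower-numbered and higher-numbered here. The ages of the mice and the part of the intestine are not given in the sources used here.

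Libraries held 28769449 to 48081308 uniquely mapped reads. Arntl averaged 14.9 TPM (a length-corrected share of all transcripts in the library) in controls and 8.67 TPM after loss of Bmal1. With Apc-min it averaged 11.1 TPM, and 4.86 TPM where Bmal1 was missing too. Its direct target Nr1d1 averaged 17, 2.39, 9.11 and 4.84 TPM in the same order. Apc averaged 9.5, 8.80, 14.9 and 15.4 TPM, which checks no label, since the Min allele is a point mutation. A pair of lower-numbered libraries collected at 28 h went against their labels. The library labelled Apc-min had 4.09 TPM of Arntl, where the other lower-numbered libraries of that genotype had 9.96 to 17.3. In the library labelled Apc-min Bmal1-null it was 14.7 TPM, where its counterparts had 3.42 to 6.06. Among the 31 members, 17 fell outside the range of the other 9 libraries of the same genotype and set in the former library, and 16 of those 17 lay inside the range of the other genotype. For the latter library the numbers were 15 and 12. Both are kept under their labels, and counts are also given without them.

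In control organoids every stage of synthesis was expressed. Median levels ran from 851 TPM for Fdps, which makes farnesyl diphosphate, down to 1.36 TPM for Abca1, which lipidates apolipoprotein A-I at the cell surface. Fdps, Msmo1 (514 TPM), Hmgcs1 (376 TPM), Cyp51 (321 TPM) and Sqle (283 TPM) led the order. At the other end stood Soat2 (34.0 TPM), Npc1 (12.7 TPM), Mylip (3.58 TPM) and Abca1. In the middle of the order the library ranges of neighbours overlapped widely, as for Pmvk (172 to 225 TPM) and Srebf2 (120 to 222 TPM). Toward the top, Fdps (715 to 1029 TPM), Msmo1 (463 to 582 TPM) and Hmgcs1 (273 to 455 TPM) did not overlap. Toward the bottom, neither did Soat2 (26.5 to 44.6 TPM), Npc1 (7.63 to 15.7 TPM) and Mylip (2.03 to 5.09 TPM). The 18 synthesis enzymes summed to 3726, 4298 and 4634 TPM (lowest, median and highest of 22 control libraries).

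The first comparison set Apc-min against control organoids, both with intact Bmal1. Most of the 31 genes were lower, and the apical sterol transporters were close to undetected. Of 31 members, 24 fell and 3 rose at an adjusted p under 0.05 (limma on log2(TPM + 1), Benjamini-Hochberg over 13663 genes). Over all genes tested, 31.1% fell and 50.5% rose, so that the share of members that fell was above the background in these libraries. The median log2 difference was -0.40 over the members and 0.17 over all genes. In this and every later bulk comparison, fewer cells of a type and less RNA per cell cannot be told apart.

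Npc1l1 (ENSMUSG00000020447, GRCm38 chromosome 11, 6211013 to 6230143, minus strand), the apical importer of sterols, had 33.3, 63.5 and 88.9 TPM in control organoids (lowest, median and highest of 22). In Apc-min organoids it had 0.20, 0.35 and 0.84 TPM. The groups did not come near each other, and the ratio of medians was 181. Abcg5 and Abcg8 encode the subunits of the apical sterol exporter, and they lie head to head on chromosome 17 (84658234 to 84683011, minus strand, and 84676302 to 84700333, plus strand). Their annotated spans overlap, and how the counting treated strand is not given in the sources used here, so the split of reads between them is uncertain. Abcg5 had 39.04, 61.99 and 75.3 TPM in control and 0.33, 0.69 and 1.39 TPM in Apc-min organoids. Abcg8 had 25.1, 47.01 and 61.6 TPM against 0.19, 0.32 and 0.76 TPM. Neither gene's groups overlapped. On the log2(TPM + 1) scale, which understates the change of a gene that ends near 0, the differences were -5.55 ± 0.07 for Npc1l1, -5.17 ± 0.07 for Abcg5 and -5.05 ± 0.08 for Abcg8 (SE of the limma coefficient, n = 22 each). Their adjusted p-values were 3.28e-38, 1.01e-36 and 1.60e-34.

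Soat2 (chromosome 15, 102150526 to 102163469, plus strand), the enterocyte and liver acyltransferase that esterifies cholesterol, had 26.5, 34.0 and 44.6 TPM in control and 1.18, 4.20 and 6.50 TPM in Apc-min organoids. Every Apc-min library lay under every control library, with a log2 difference of -3.02 ± 0.14 (SE). Abca1 (chromosome 4, 53030787 to 53159895, minus strand), a target of the sterol-sensing liver X receptors, had 0.38, 1.36 and 2.58 TPM in control and 0.01, 0.23 and 0.98 TPM in Apc-min organoids. These ranges overlapped, and the log2 difference was -0.85 ± 0.08 (SE, adjusted p = 2.88e-11). With a pseudocount of 0.1 in place of 1 it was -1.94. All 4 efflux and esterification genes thus fell, with a median log2 difference of -4.03.

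**Figure D1:**
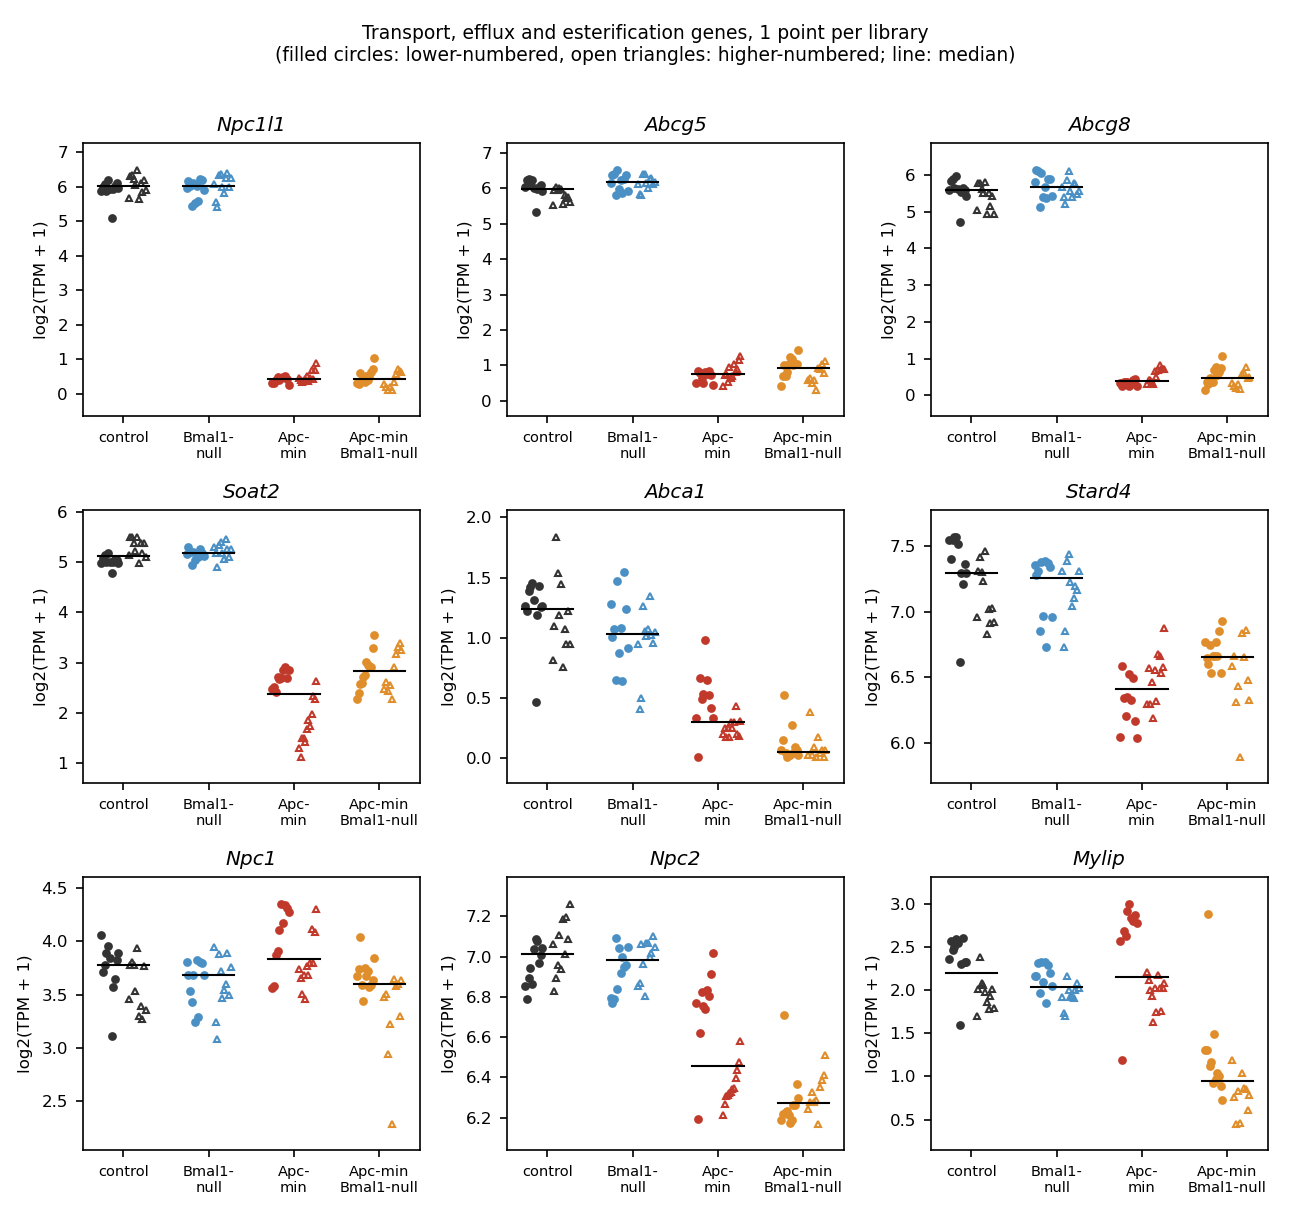
Level of 9 transport, efflux and esterification genes as log2(TPM + 1) on the y axis, in the 4 genotypes on the x axis, with 1 point per library (22 per genotype), filled circles for the lower-numbered and open triangles for the higher-numbered library of a time point, and a line at the median. Npc1l1, Abcg5 and Abcg8 lie near 0 in both Apc-min genotypes, and in Mylip a single circle of each Apc-min genotype lies apart from its own group.

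Markers of mature cell types moved with these genes. All 12 enterocyte markers fell as well. Their summed level was 7770, 10065 and 11468 TPM in control and 208, 324 and 986 TPM in Apc-min organoids (lowest, median and highest of 22). The rest came mainly from Vil1, at a median of 178 TPM, and Anpep, at 130 TPM, while Sis, Apoa4 and Alpi had medians of 0.01, 0.14 and 0.15 TPM. Lct and Fabp1 were low already in control organoids, at medians of 1.23 and 3.05 TPM. All 6 goblet and all 6 enteroendocrine markers fell, as did 5 of 6 Paneth markers, whereas all 5 proliferation markers rose. Other lists were mixed. Of 4 tuft markers 3 fell, but Avil rose, and their sum went from 5.15 to 12.2 TPM in control to 22.9 to 131 TPM in Apc-min organoids. Of 5 stem markers Lgr5, Olfm4 and Smoc2 fell while Ascl2 and Axin2 rose, and the median sum went from 1026 to 365 TPM. Of the immune markers 2 were tested, where Lyz2 rose and Itgam fell, and the median sum went from 2.79 to 10.8 TPM. The median sum of the endothelial markers went from 0.25 TPM (highest 0.54) in control to 2.68 TPM (highest 19.6) in Apc-min organoids. Fibroblast markers stayed at a sum of 1.04 TPM or less in all 88 libraries. The part of these marker changes in the results on the 31 genes was not tested.

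The synthesis enzymes fell by much less than the transporters. In Apc-min organoids 16 of 18 fell, with a median log2 difference of -0.34, Idi1 rose, and Nsdhl, a sterol dehydrogenase, did not pass (-0.08, adjusted p = 0.21). Their sum was 3013, 3413 and 3776 TPM, against the 3726 to 4634 TPM of the controls, so that the ranges overlapped only at their edges. Of the 7 mevalonate genes 6 fell, and of the 11 squalene and sterol genes 10 fell.

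Tm7sf2 (chromosome 19, 6062821 to 6068373, minus strand), a sterol reductase that acts after lanosterol demethylation, had the largest difference among the enzymes. It had 149, 160 and 180 TPM in control and 46.8, 85.5 and 117 TPM in Apc-min organoids, with no overlap. The difference was -0.99 ± 0.09 on the log2 scale (SE, adjusted p = 1.25e-12). Lss, which folds squalene epoxide into lanosterol, fell from a median of 188 to 111 TPM (-0.72 ± 0.07). Cyp51, the lanosterol demethylase, fell from 321 to 216 TPM (-0.58 ± 0.05), and Mvd, which makes isopentenyl diphosphate, from 220 to 163 TPM (-0.52 ± 0.06). Mvd and Ebp were the other enzymes whose libraries did not overlap between these genotypes. In all, 7 of 31 members lay lower in every Apc-min library than in any control library (Mvd, Tm7sf2, Ebp, Npc1l1, Abcg5, Abcg8 and Soat2), against 12.9% of all genes tested, and 0 lay higher in every library, against 15.3%.

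Hmgcs1 (ENSMUSG00000093930, chromosome 13, 119690379 to 119708260, plus strand), which encodes HMG-CoA synthase at the entry to the mevalonate arm, had 273, 376 and 455 TPM in control and 240, 283 and 328 TPM in Apc-min organoids. The ranges overlapped, and the difference was -0.41 ± 0.05 (SE, adjusted p = 2.25e-09). Sqle (ENSMUSG00000022351, chromosome 15, 59315077 to 59331192, plus strand), the squalene epoxidase, had 201, 283 and 315 TPM against 189, 220 and 249 TPM. The log2 difference was -0.34 ± 0.04, also with overlap. The other enzymes that fell were Acat2, Mvk, Pmvk, Fdps, Fdft1, Msmo1, Hsd17b7, Ebp, Sc5d and Dhcr7, with log2 differences from -0.10 to -0.41.

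Idi1, which isomerises isopentenyl diphosphate, went the other way. It had 57.8, 103 and 156 TPM in control and 69.6, 136 and 189 TPM in Apc-min organoids, and the ranges overlapped broadly. The log2 difference was 0.32 ± 0.11 (SE, adjusted p = 0.0065). It was -0.03 among lower-numbered and 0.63 among higher-numbered libraries. Under scaling by the median of ratios, which lowered the median of all genes to 0.01, it was 0.16 (adjusted p = 0.075) and no longer passed.

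The 4 control genes split. Insig1 (ENSMUSG00000045294, chromosome 5, 28071363 to 28078662, plus strand), the sterol-responsive retention protein and an SREBP target, had 136, 248 and 298 TPM in control and 88.2, 129 and 176 TPM in Apc-min organoids, with a log2 difference of -0.91 ± 0.08 (SE, adjusted p = 4.65e-12). Scap, the SREBP escort, rose from 29.3, 41.7 and 53.1 TPM to 48.9, 73.1 and 88.3 TPM (0.82 ± 0.07, adjusted p = 1.45e-12), with a small overlap, and by 0.66 under median-of-ratios scaling. Srebf2 (ENSMUSG00000022463, chromosome 15, 82147181 to 82205379, plus strand), which encodes the SREBP of cholesterol synthesis, had 120, 194 and 222 TPM against 153, 197 and 245 TPM. Its log2 difference of 0.09 ± 0.07 did not pass (adjusted p = 0.26). Srebf1, whose products act mainly on fatty acid genes, gave -0.05 ± 0.06 (adjusted p = 0.47).

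Uptake and transport within the cell were as mixed. Stard4, a soluble sterol carrier and SREBP target, fell from 97.2, 156 and 189 TPM to 64.7, 84 and 117 TPM (-0.83 ± 0.08). Npc2, the sterol-binding protein of the lysosomal lumen, fell from a median of 128 to 86.8 TPM (-0.47 ± 0.06). Npc1, its membrane partner, rose from 12.7 to 13.3 TPM (0.24 ± 0.09, adjusted p = 0.0128), and under median-of-ratios scaling this was 0.09 and did not pass (adjusted p = 0.24). Mylip, the ubiquitin ligase that removes the LDL receptor, gave 0.10 ± 0.13 (adjusted p = 0.50).

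**Figure D2:**
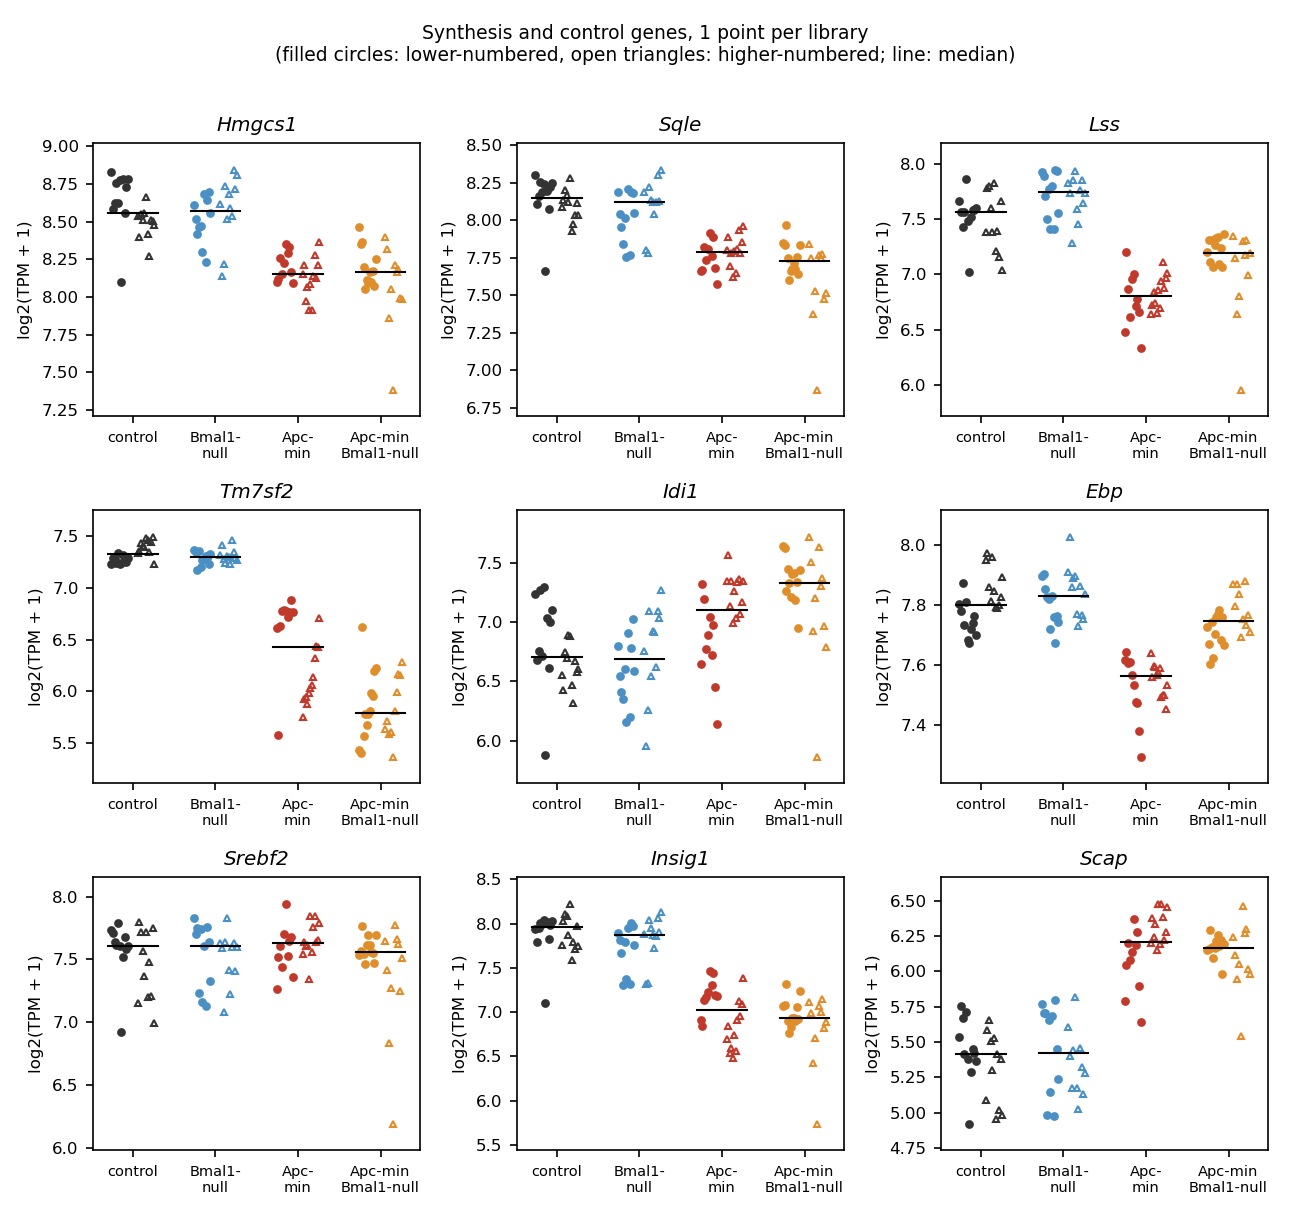
Level of 9 synthesis and control genes as log2(TPM + 1) on the y axis, in the 4 genotypes on the x axis, with 1 point per library (22 per genotype), filled circles for the lower-numbered and open triangles for the higher-numbered library of a time point, and a line at the median. Each panel has its own y scale, which does not start at 0. Tm7sf2 and Insig1 lie lower and Scap higher in the Apc-min genotypes, while Srebf2 does not separate.

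Promoter sequence was available for 25 of the 31 genes in RefSeq (GRCm38.p6), as 250 bases before and 50 after the start. Only 1 of the 25 (Hmgcs1) held the sterol regulatory element TCACNCCAC on either strand, against 1.22% of 27025 mouse promoters in the same table. The box CCAAT, which reads ATTGG on the other strand, stood in 21 of 25 and in 13 of the 15 enzyme promoters, against 37.9% of all promoters. The E-box CACGTG, to which the BMAL1 complex can bind, stood in 5 of 25 (Hsd17b7, Sc5d, Insig1, Scap and Abca1), against 7.24%. A match describes letters in this window and is not a binding site. The sequences below are the bases before the start, written 5′ to 3′ on the strand of the gene, with matches to the 3 motifs in capitals. Hmgcs1 is shown for its sterol element, Idi1 as the mevalonate gene that rose, Insig1 for its E-box and Tm7sf2 as the enzyme with the largest fall. Hmgcs1 is chr13:119690101-119690350 (plus), Idi1 chr13:8885356-8885605 (plus), Insig1 chr5:28071162-28071411 (plus) and Tm7sf2 chr19:6067851-6068100 (minus).
Hmgcs1: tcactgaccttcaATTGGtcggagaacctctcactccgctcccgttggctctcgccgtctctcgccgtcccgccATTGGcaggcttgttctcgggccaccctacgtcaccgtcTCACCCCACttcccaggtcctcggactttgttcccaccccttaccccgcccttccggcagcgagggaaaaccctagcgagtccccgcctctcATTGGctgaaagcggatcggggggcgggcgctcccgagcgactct
Idi1: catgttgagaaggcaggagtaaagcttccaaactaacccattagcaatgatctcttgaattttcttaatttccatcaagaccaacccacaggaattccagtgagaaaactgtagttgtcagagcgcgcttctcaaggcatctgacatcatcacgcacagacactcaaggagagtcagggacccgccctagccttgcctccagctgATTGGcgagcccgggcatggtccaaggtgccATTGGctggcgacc
Insig1: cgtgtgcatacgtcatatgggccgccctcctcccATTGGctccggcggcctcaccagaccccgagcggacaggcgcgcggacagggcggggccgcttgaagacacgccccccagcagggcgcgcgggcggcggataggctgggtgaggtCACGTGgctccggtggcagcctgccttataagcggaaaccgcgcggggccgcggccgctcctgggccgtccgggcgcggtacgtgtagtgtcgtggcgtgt
Tm7sf2: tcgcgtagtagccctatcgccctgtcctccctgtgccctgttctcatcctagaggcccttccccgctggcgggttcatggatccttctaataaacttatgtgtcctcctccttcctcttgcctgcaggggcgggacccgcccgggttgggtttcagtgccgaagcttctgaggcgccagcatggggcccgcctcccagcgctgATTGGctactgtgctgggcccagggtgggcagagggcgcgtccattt

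The sterol element of Hmgcs1 began 137 bases before the start and the E-box of Insig1 101 bases before it. Abcg5 and Abcg8 share the 109 bases between their RefSeq starts, chr17:84683012-84683120, shown on the strand of Abcg8 because both genes of this divergent pair fell together. No capitals appear, as these letters hold none of the 3 motifs. Outside them, CCAAT matches began 175 and 114 bases before the Abcg8 start, and the nearer match lies at the Abcg5 start.
Abcg5-Abcg8: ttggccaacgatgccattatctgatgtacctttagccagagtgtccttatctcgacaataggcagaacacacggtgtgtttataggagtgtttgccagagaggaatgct

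The same contrast was then made on the Bmal1-null background, Apc-min Bmal1-null against Bmal1-null organoids, with other libraries. Of 31 members 22 fell and 3 rose (limma), against 38.8% and 45.7% of the 13404 genes tested. The median log2 difference was again -0.40 over the members, beside 0.07 over all genes. Npc1l1 had 41.8, 63.8 and 82.9 TPM with wild-type Apc and 0.08, 0.35 and 1.04 TPM with Apc-min (-5.54 ± 0.07). Abcg5 had 55.1, 71.05 and 91.05 TPM against 0.24, 0.90 and 1.71 TPM (-5.30 ± 0.08), and Abcg8 33.9, 49.7 and 69.2 TPM against 0.11, 0.40 and 1.09 TPM (-5.18 ± 0.09). None of these ranges overlapped. Soat2 had 28.97, 35.2 and 42.9 TPM against 3.83, 6.13 and 10.8 TPM (-2.36 ± 0.08).

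Tm7sf2 fell from 143, 156 and 176 TPM to 40.3, 54.5 and 97.9 TPM (-1.45 ± 0.07, adjusted p = 1.24e-20). Mylip fell from 2.24, 3.09 and 4 TPM to 0.37, 0.93 and 6.35 TPM (-1.03 ± 0.12, adjusted p = 5.03e-10), where the 6.35 TPM came from the doubted library of 28 h. Abca1 fell to a median of 0.04 TPM (-0.92 ± 0.07), and with a pseudocount of 0.1 the difference was -2.78. Insig1 fell by 0.87 ± 0.09 and Hmgcs1 by 0.41 ± 0.06. Sqle fell by 0.40 ± 0.06, and Srebf2 again did not pass (-0.07 ± 0.09, adjusted p = 0.48). Idi1 rose from a median of 102 to 160 TPM (0.56 ± 0.11) and Scap from 41.9 to 70.98 TPM (0.71 ± 0.07), and Acat2, the acetyl-CoA thiolase that opens the arm, rose by 0.17 ± 0.04. Among the enzymes 12 of 18 fell and 2 rose.

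Every library of Apc-min Bmal1-null organoids lay under every Bmal1-null library for 6 members (Tm7sf2, Npc1l1, Npc2, Abcg5, Abcg8 and Soat2), against 15.3% of all genes, and above for 0, against 15.1%. Without the pair of doubted libraries 9 lay under, against 19.1%. At least 2-fold, 6 members fell on this background and 4 on the Bmal1 wild-type background, where 14.8% and 12.4% of genes did. All 12 enterocyte markers fell here too, from a sum of 7532 to 11159 TPM in Bmal1-null organoids to 135 to 580 TPM, and their part in the result was not tested.

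**Figure D3:**
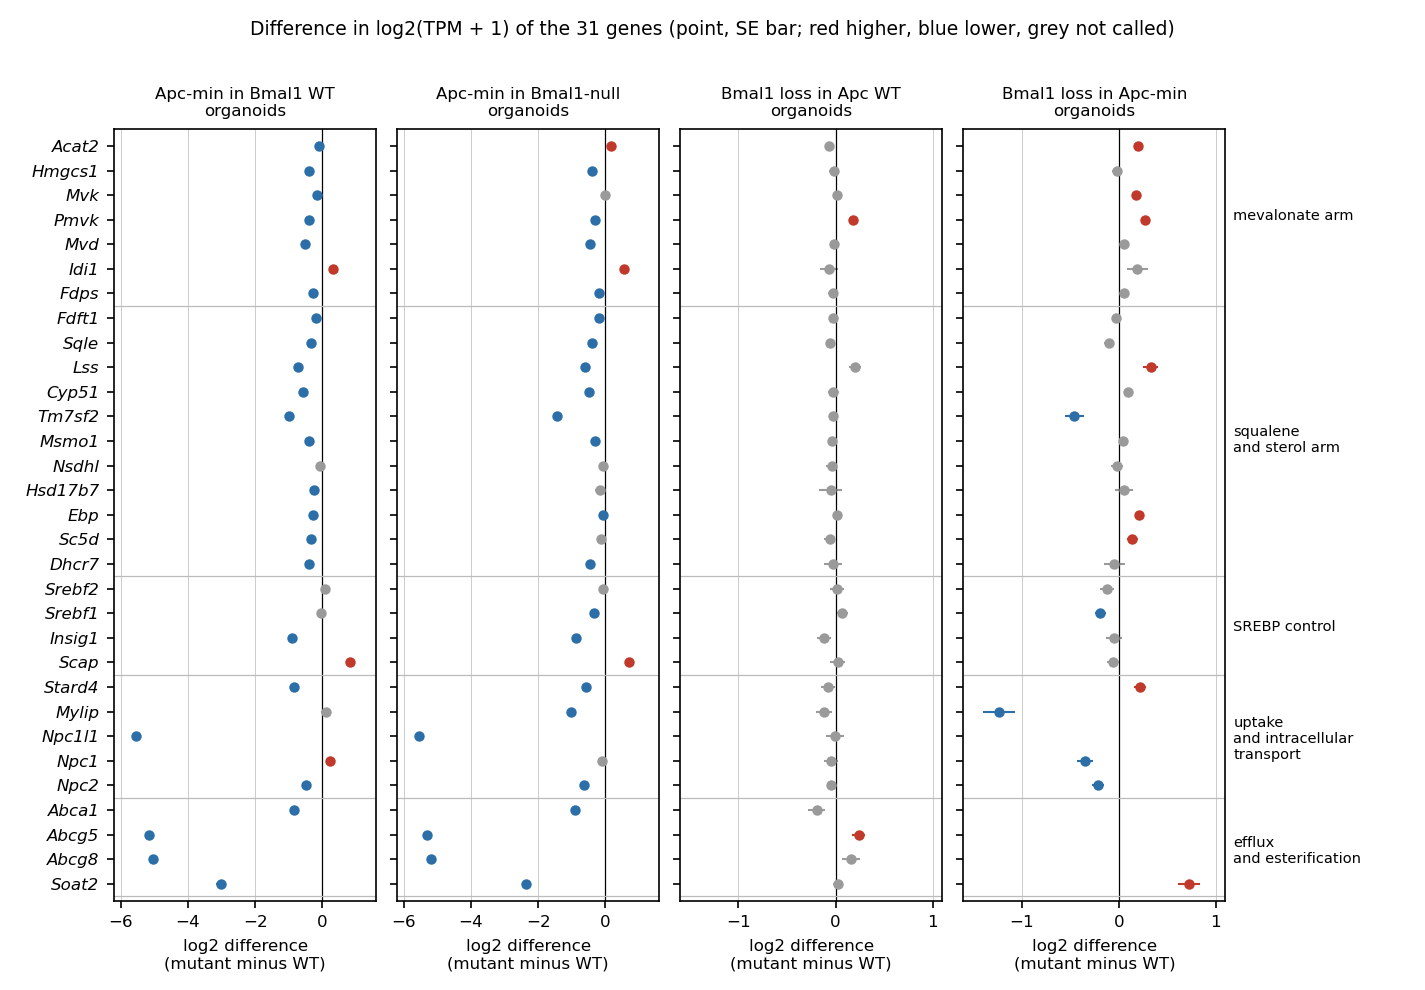
Difference in log2(TPM + 1), mutant minus wild type, on the x axis for the 31 genes on the y axis in the 4 comparisons of mean level, with the SE of the limma coefficient as a bar (22 libraries per genotype), red for higher, blue for lower and grey for not called. The x axes of the left panels run to -6 and those of the right panels from about -1.5 to 1. Genes with no point in the last panel (Npc1l1, Abca1, Abcg5 and Abcg8) were under the filter there.

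Other cholesterol genes outside the 31 were followed through a list of 23. In Apc-min against control organoids 9 rose and 11 fell. Mttp and Apob, which assemble chylomicrons, gave -5.86 ± 0.07 and -3.63 ± 0.11, and Nr1h3, which encodes the liver X receptor alpha, gave -4.46 ± 0.07 on the log2 scale. Gramd1a, a sterol carrier at membrane contacts, rose by 2.77 ± 0.14. On the Bmal1-null background 4 of 22 tested rose and 12 fell, with Mttp (-6.33 ± 0.08), Nr1h3 (-4.37 ± 0.09), Apob (-1.85 ± 0.13) and Mbtps2 (1.06 ± 0.10), a protease that activates SREBP, as the largest. Of 13 fatty acid synthesis genes, 12 were tested in Apc-min against control organoids, and 5 rose and 4 fell. The largest differences there were in Pnpla3 (2.44 ± 0.20), Me1 (2.14 ± 0.15), Acss2 (-1.96 ± 0.14) and Fads2 (-0.65 ± 0.07). On the Bmal1-null background 4 of 11 rose and 5 fell, led by Me1 (2.13 ± 0.05) and Acss2 (-1.97 ± 0.10).

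The second question was whether the clock factor sets the level of these genes. With wild-type Apc, loss of Bmal1 went with few differences in these genes. Of 31 members 2 rose and 0 fell (limma, 12654 genes), against 2.09% and 1.47% of all genes, and 4 members had an unadjusted p under 0.05. For that last count the share of all genes is not given. Pmvk, the phosphomevalonate kinase, had 172, 203 and 225 TPM in control and 195, 220 and 259 TPM in Bmal1-null organoids. The ranges overlapped, and the difference was 0.18 ± 0.03 (SE, adjusted p = 0.000445). Among lower-numbered libraries it was 0.25 (adjusted p = 0.00116) and among higher-numbered 0.12 (adjusted p = 0.24), and under median-of-ratios scaling it did not pass (0.18, adjusted p = 0.13). Abcg5 rose by 0.24 ± 0.07 (adjusted p = 0.0304), and with no filter on low values this did not pass (adjusted p = 0.0624).

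The genes at the centre of the pathway did not pass. Hmgcs1 differed by -0.02 ± 0.05, Sqle by -0.06 ± 0.05 and Srebf2 by 0.01 ± 0.07 on the log2 scale. For Insig1 the difference was -0.12 ± 0.07 (adjusted p = 0.73), for Abca1 -0.19 ± 0.09 (adjusted p = 0.39) and for Lss 0.20 ± 0.06 (adjusted p = 0.0699). The 18 enzymes summed to a median of 4298 TPM in each genotype. No member had libraries that did not overlap in either direction (0 of 31, against 0.103% of genes for higher and 0.0474% for lower). Of the other cholesterol genes 1 of 22 rose (Nr1h3, 0.19 ± 0.05, adjusted p = 0.0459), and 0 of 11 fatty acid genes tested passed, with 1 of 11 at an unadjusted p under 0.05. Again no share of all genes is given at that unadjusted threshold.

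In Apc-min organoids loss of Bmal1 went with more differences. The comparison shares its Apc-min libraries with the first. Of the 27 members tested (Npc1l1, Abca1, Abcg5 and Abcg8 had a mean under 1 TPM in both genotypes) 8 rose and 5 fell, against 24.6% and 35.7% of 12885 genes. Both shares of members were near or under the background. The split of all calls depended on scaling, as 40.8% of called genes were higher as designed and 54.4% under median-of-ratios scaling.

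Mylip had the largest difference. It had 1.29, 3.42 and 7 TPM where Bmal1 was intact, against 0.37, 0.93 and 6.35 TPM where it was lost. Each extreme that crosses into the other group came from a doubted library, and without both the ranges did not overlap, which holds for 1 of 27 members and for 5.19% of genes. The difference was -1.23 ± 0.16 (SE, adjusted p = 1.55e-07), and -1.37 without both. It was -1.39 in lower-numbered and -1.17 in higher-numbered libraries. When the means of library sets were taken as units it was the only member that passed (-1.29, adjusted p = 0.0216).

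Soat2 rose from 1.18, 4.20 and 6.50 TPM to 3.83, 6.13 and 10.8 TPM (0.73 ± 0.11, adjusted p = 2.67e-06). Its difference was 1.14 among higher-numbered libraries and 0.22 among lower-numbered, where it did not pass (adjusted p = 0.052). Tm7sf2 fell from 46.8, 85.5 and 117 TPM to 40.3, 54.5 and 97.9 TPM (-0.46 ± 0.10), with -0.71 in lower-numbered and -0.26 in higher-numbered libraries. The other genes that rose were Lss (0.33 ± 0.08), Pmvk (0.27 ± 0.04), Stard4 (0.22 ± 0.06), Ebp (0.20 ± 0.03), Acat2 (0.19 ± 0.04), Mvk (0.18 ± 0.04) and Sc5d (0.14 ± 0.05). Those that fell were Npc1 (-0.35 ± 0.08), Npc2 (-0.22 ± 0.06) and Srebf1 (-0.19 ± 0.05). Hmgcs1 (-0.02 ± 0.05), Sqle (-0.10 ± 0.05), Srebf2 (-0.12 ± 0.08) and Insig1 (-0.05 ± 0.08) did not pass.

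The sets of libraries within Apc-min organoids did not overlap for 2 of 27 members with a mean of at least 1 TPM, against 22.4% of genes. Without the doubted library, Mylip was 4.91 to 7 TPM in the 9 lower-numbered and 2.10 to 3.62 TPM in the 12 higher-numbered libraries. Npc2 was 97.5 to 128 TPM against 73.2 to 94.6 TPM, also apart. Soat2 had medians of 5.50 and 2.26 TPM and Tm7sf2 of 108 and 65.1 TPM, with ranges that overlapped. No member was apart between sets in the other 3 genotypes, where 0.509% (control), 0.127% (Bmal1-null) and 1.14% (Apc-min Bmal1-null) of genes were. Whether a set is an organoid line is not given in the labels. By set, Npc2 differed between the Bmal1 genotypes by -0.46 among lower-numbered and -0.02 among higher-numbered libraries (adjusted p = 0.69), Stard4 by 0.40 and 0.05, and Lss by 0.48 and 0.17 (adjusted p = 0.22).

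Among the other cholesterol genes 3 of 22 rose and 11 fell with loss of Bmal1 in Apc-min organoids, with Gramd1a (-1.92 ± 0.22), Apob (1.66 ± 0.15), Abcg1 (-0.78 ± 0.09) and Lpcat3 (-0.65 ± 0.12) as the largest. Of 12 fatty acid genes 3 rose and 4 fell, led by Pnpla3 (-2.06 ± 0.26). Enterocyte markers moved both ways, with 3 of 6 tested higher and 1 lower, and their sum was 208 to 986 TPM against 135 to 580 TPM. Of 4 Paneth markers tested Lyz1, Mmp7 and Itln1 fell, and the median sum of the list went from 1957 to 547 TPM. Of 4 stem markers tested Lgr5, Ascl2 and Axin2 fell, and of 5 proliferation markers Ccnb1, Pcna and Mcm5 rose. Goblet markers split, with 2 of 4 higher and 2 lower, and Lyz2, the 1 immune marker tested, fell. The part of these markers in the result was not tested.

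Whether the effect of Bmal1 depended on Apc was tested as an interaction over all 88 libraries. It passed for 11 of 31 members, 6 higher and 5 lower, against 18.1% and 29.6% of 13846 genes. Mylip had the largest interaction (-1.12 ± 0.18, adjusted p = 1.58e-07). For Soat2 it was 0.64 ± 0.15, for Tm7sf2 -0.45 ± 0.11 and for Npc1 -0.33 ± 0.12. It was -0.28 ± 0.10 for Srebf1, 0.27 ± 0.06 for Acat2, 0.27 ± 0.11 for Stard4 and 0.19 ± 0.08 for Sc5d. For Hmgcs1 (0.00 ± 0.08), Sqle (-0.05 ± 0.07), Srebf2 (-0.16 ± 0.11), Insig1 (0.04 ± 0.12) and Abca1 (-0.07 ± 0.11) it did not pass. Under median-of-ratios scaling 10 members were higher, against 28.3% of genes, and with means of library sets as units 0 passed in either direction.

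The series was made to find genes that cycle, and a cosine of 24 h period was fitted in each genotype. In control organoids 0 of 31 members passed, against 0.0557% of genes, and 5 had an unadjusted p under 0.05. The lowest of these was Cyp51, with a fitted swing of 1.20-fold from trough to peak (adjusted p = 0.35). In Bmal1-null organoids 0 of 31 passed, against 0% of 12550 genes, with 3 members at an unadjusted p under 0.05. The direct test of a difference in rhythm between these genotypes passed for 0 of 31 members, against 0.0395% of genes, with 5 at an unadjusted p under 0.05. In Apc-min organoids 4 of 27 passed (Srebf1, Npc1, Ebp and Insig1), against 12% of genes, and with Bmal1 lost as well 2 of 27 (Soat2 and Msmo1), against 2.59%. Between these genotypes the difference in rhythm passed for 0 of 27 members, against 0% of genes, with 1 at an unadjusted p under 0.05. All percents here are at the adjusted threshold. No share of all genes is given for the unadjusted p, so those counts of members have no background beside them. A single cycle was sampled, so a cosine cannot be told from another change over the series, and once a linear term in time was added 0 members passed in either Apc-min genotype.

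Npc1 had the largest amplitude of the 4 in Apc-min organoids, 0.31 ± 0.06 on the log2 scale with a fitted peak at 41.9 h (adjusted p = 0.0173). Insig1 peaked at 41.9 h as well (0.26 ± 0.07, adjusted p = 0.0456), Srebf1 at 39 h (0.19 ± 0.04) and Ebp at 30.8 h (0.09 ± 0.02). Without both doubted libraries 2 passed (Npc1 and Srebf1), against 3.17% of genes. In Apc-min Bmal1-null organoids Soat2 had an amplitude of 0.40 ± 0.07 and a peak at 41.1 h (adjusted p = 0.0103), and Msmo1 0.13 ± 0.02 at 47.7 h. Without both doubted libraries 7 of 26 members tested passed there (Acat2, Mvd, Fdps, Tm7sf2, Msmo1, Srebf1 and Soat2), against 11.9% of genes.

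A linear change from 24 to 46 h was fitted next. The fitted slope over these 22 h passed for 8 members upward and 1 downward of 27 in Apc-min organoids, against 22.2% and 9.01% of genes. Soat2 averaged 2.74 TPM ± 1.73 (SD, 5 libraries) at 24 to 28 h and 5.23 TPM ± 1.08 (SD, 6 libraries) at 42 to 46 h. Its fitted change was 2.15-fold (1.11 ± 0.31 on the log2 scale, adjusted p = 0.0123). By set the slope was 0.021 per h among lower-numbered (adjusted p = 0.083) and 0.061 per h among higher-numbered libraries (adjusted p = 1.03e-05).

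Tm7sf2 rose by 0.83 ± 0.21, Npc1 by 0.75 ± 0.13, Insig1 by 0.61 ± 0.16, Npc2 by 0.43 ± 0.15 and Nsdhl by 0.38 ± 0.09 over the 22 h. Mvd rose by 0.36 ± 0.13 and Srebf1 by 0.32 ± 0.11. Ebp, the sterol isomerase, fell by 0.22 ± 0.05. The doubted library of 28 h had 46.8 TPM of Tm7sf2 and 72.2 TPM of Npc2. The other lower-numbered Apc-min libraries had 97.2 to 117 and 97.5 to 128 TPM. It lay under them for Insig1, Mvd and Srebf1 too, and inside their range for Npc1 and Nsdhl. At 24 h only a higher-numbered library was kept, and median Tm7sf2 was 108 TPM in lower-numbered and 65.1 TPM in higher-numbered libraries. Set and time are thus not balanced in these slopes. Hmgcs1 and Sqle did not pass.

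In Apc-min Bmal1-null organoids 2 members rose, against 5.62% of genes, and 0 fell, against 2.82%. Soat2 averaged 4.53 TPM ± 0.48 (SD, 6 libraries) at 24 to 28 h and 8.84 TPM ± 1.54 (SD, 5 libraries) at 42 to 46 h, a fitted change of 2.13-fold (1.09 ± 0.13, adjusted p = 5.29e-06). It passed within lower-numbered (adjusted p = 0.000348) and within higher-numbered libraries (adjusted p = 0.0306). Tm7sf2 rose by 0.64 ± 0.17 (adjusted p = 0.0199), and neither set alone passed for it. In control organoids 0 of 31 members had a slope that passed in either direction, against 0.971% of genes upward and 1.23% downward. In Bmal1-null organoids 0 rose, against 3.43%, and 2 fell, against 3.28% (Mvk by 0.34 ± 0.07 and Ebp by 0.17 ± 0.05).

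The slopes themselves differed between the 4 genotypes for 7 of 31 members in a direct test (limma, F test of genotype by hour), against 24.8% of genes. Soat2 had the lowest adjusted p (4.41e-05), followed by Tm7sf2 (0.000704) and Mvd (0.00223). Srebf1, Npc1, Abcg5 and Abcg8 also passed. The share of members was thus near that of all genes.

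**Figure D4:**
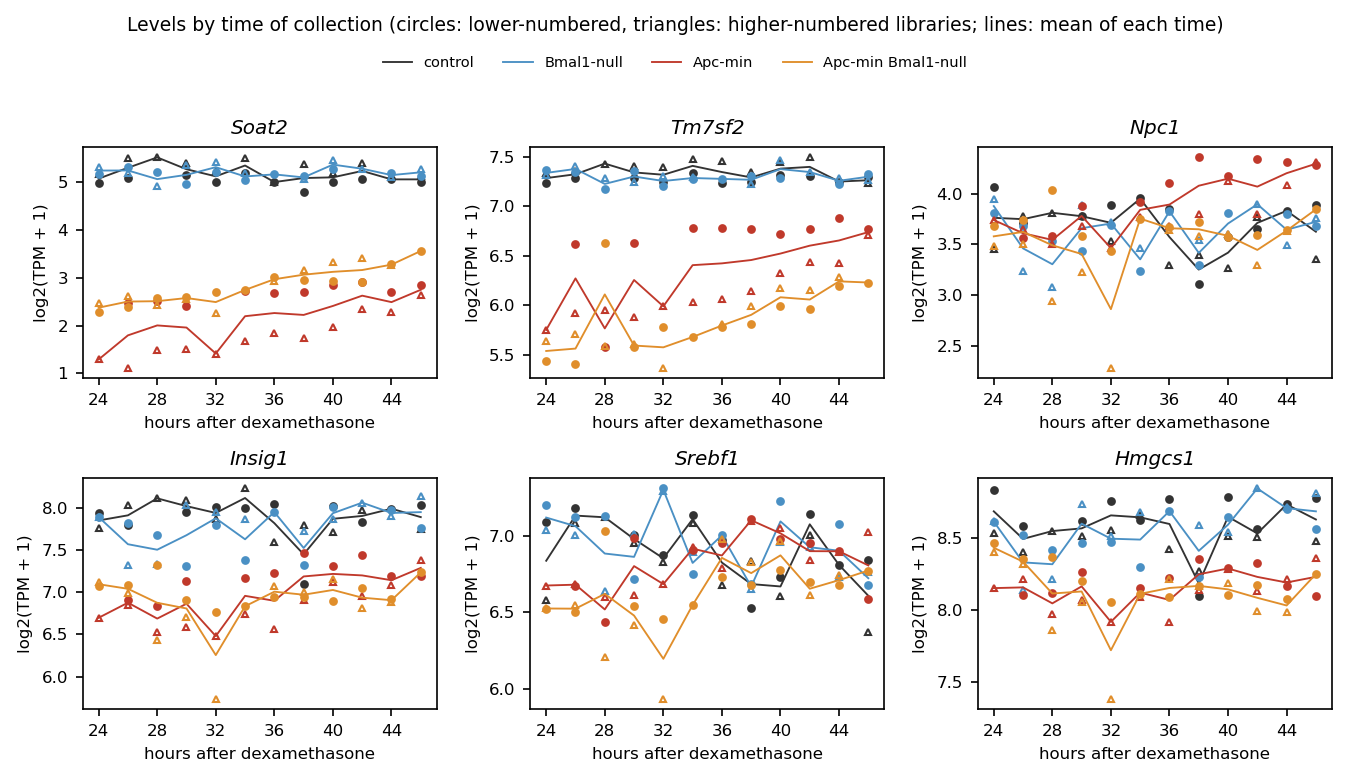
Level of 6 genes as log2(TPM + 1) on the y axis against hours after dexamethasone on the x axis, with filled circles for the lower-numbered and open triangles for the higher-numbered library of a time point and a line through the mean of each time in the 4 genotypes. Soat2 and Tm7sf2 climb in both Apc-min genotypes and had no slope that passed in the others, and the points of Tm7sf2 that cross between the Apc-min genotypes at 28 h are the doubted libraries.

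Finally, members were regressed on Hmgcs1 across all 88 libraries, in a model that also held each genotype at each time point and, additively, the library set of each genotype. Of 30 members 23 had a positive and 3 a negative slope that passed (limma), against 62.4% and 10.1% of 13845 genes, so most of the transcriptome did the same. Sqle followed Hmgcs1 most closely, with a slope of 1.00 ± 0.05 and a partial correlation of 0.97, and Insig1 followed with 1.6 ± 0.09. Srebf2 had a slope of 1.38 ± 0.15 and Abca1 one of 0.99 ± 0.18. Mvk, Pmvk and Fdps were the 3 with negative slopes. Ranked by p, 2 members were among the first 10 genes (Sqle and Insig1), and the first 5 genes outside the list were Pank3, Clcn3, Tbc1d8b, Echdc1 and Exoc5.

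These slopes depended on the scaling of libraries. With median-of-ratios scaling 13 genes passed in all and 0 members, and the partial correlation with Hmgcs1 was 0.73 for Sqle, 0.59 for Idi1, 0.51 for Cyp51, 0.50 for Sc5d and 0.49 for Insig1. With the slope of each library on transcript length as a covariate 841 genes passed, 9 members among them. That slope was lowest in a higher-numbered Apc-min Bmal1-null library of 32 h (-0.22), in which Srebf2 was at 72.2 TPM and Lss at 61.1 TPM, the lowest values of their genotype.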

How the data were processed

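RNA-seq of 88 organoid libraries was analysed from the TPM values (each gene's length-corrected share of a library, summing to the same total in every library) that the authors deposited per gene and library. The submitters' processing notes name STAR 2.5, RSEM 1.3.0 and GRCm38, without roles. Read counts and percent values came from the deposited aligner logs, and 8 libraries that carry the authors' mark of non-use were left out. A further 88 per-sample columns, named only by hour, were not used.

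Gene coordinates came from GENCODE M21. Values were tested as log2(TPM + 1) with limma 3.58.1 (trend option, R 4.3.3), after keeping genes with a mean of at least 1 TPM in a genotype compared, and p-values were adjusted by Benjamini-Hochberg over all genes tested. Calls are at an adjusted p under 0.05. Mean levels were fitted with time as a factor, rhythm as a 24 h cosine (F test), trend as a slope on hours, and covariation as a slope on Hmgcs1 beside genotype by time point and, additively, genotype by library set. TPM is relative, and a gene's value moves with the rest of its library. The fits were tested on simulated data. Alternatives covered the pseudocount, filter, scaling and libraries used.

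All 31 members are accounted for, and those named with full values had the largest called differences (up to 6 in each direction), with Hmgcs1, Sqle, Srebf2, Insig1 and Abca1 always named. From each other list, up to 4 genes are named. The members and lists were chosen with earlier results of these data known.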

Additional observations from a re-analysis of the deposited data

Results flagged for a closer look

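The effect of Bmal1 loss differed between Apc-min and Apc wild-type organoids, by the interaction term over 88 libraries, in 11 of the 31 genes. Over all 13846 genes tested, 18.1% were higher and 29.6% lower by this term. The share of members was near or under that background in each direction. The difference of the effects, in log2 units, was 0.27 for Acat2, 0.16 for Mvk, -0.45 for Tm7sf2, 0.19 for Ebp and 0.19 for Sc5d. It was -0.28 for Srebf1, 0.27 for Stard4, -1.12 for Mylip, -0.33 for Npc1, -0.17 for Npc2 and 0.64 for Soat2. The genes differ in direction, and with means of library sets as units 0 of them passed.

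Slopes over time differed between the 4 genotypes in 7 genes, by a direct F test (limma), against 24.8% of all genes tested. The share of members was near that of all genes. The adjusted p was 0.00223 for Mvd, 0.000704 for Tm7sf2, 0.00745 for Srebf1 and 0.0208 for Npc1. It was 0.00747 for Abcg5, 0.00717 for Abcg8 and 4.41e-05 for Soat2. Abcg5 and Abcg8 were under 1 TPM on average in both Apc-min genotypes.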

How the results depend on the processing

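Of 1255 repeats of single calls, 1073 kept their direction and side of the threshold, 168 kept the direction but lost the call, and 14 reversed. With the library set as a replicate block, counts of members were 2 higher and 0 lower for Bmal1 loss with wild-type Apc (554 genes in all, against 450), 8 and 5 in Apc-min organoids, and 3 and 24 for Apc-min against control. The block changed no count of members in these comparisons. The set number is only the order of the library numbers, so it is not known to pair libraries. The authors' quantile-normalized tables were not run. The length slope was the 1 setting chosen after seeing the data. The cause of each change below was not tested. Most counts of members in this section have no share of all genes at the same setting beside them. That share changes with the setting, so these counts describe the processing and are not results about the members.

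For Bmal1 loss with wild-type Apc, members higher numbered 1 with no filter, 1 in lower-numbered and 0 in higher-numbered libraries, 0 with set means as units, 1 with all 4 genotypes in 1 fit and 4 with the length slope, which also gave 2 lower. For Bmal1 loss in Apc-min organoids, 8 were lower in higher-numbered libraries, 1 with set means and 8 with the length slope, and 0 were higher with set means. For Apc-min against control, 1 was higher under median-of-ratios scaling and 1 with set means, and Idi1 reversed to -0.025 in lower-numbered libraries. On the Bmal1-null background 1 was higher in higher-numbered libraries. For the interaction, 10 were higher under median-of-ratios scaling and 0 with set means, and 3, 3 and 0 were lower in lower-numbered libraries, higher-numbered libraries and set means. Mvk reversed to -0.027 in lower-numbered, and Stard4 to -0.0029 and Npc2 to 0.054 in higher-numbered libraries.

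The cosine in Apc-min organoids passed for 2 with no filter, 10 with set as a term and 0 in either set alone. It passed for 2 without both doubted libraries (against 3.17% of genes), 0 with a linear term and 10 with the length slope. In Apc-min Bmal1-null organoids it passed for 0 in either set alone and 7 without both doubted libraries (against 11.9% of genes). There the cosine passed for 0 with a linear term and 12 with the length slope. Slopes in control organoids passed for 1 upward and 1 downward with set as a term, and likewise with the length slope. In Bmal1-null organoids 2 rose under median-of-ratios scaling and 10 with the length slope, and 1, 0, 0 and 4 fell under that scaling, in lower-numbered libraries, in higher-numbered libraries and with the length slope. In Apc-min organoids 5 rose with no filter and 1 in lower-numbered libraries, and 2 fell under median-of-ratios scaling and 2 with the length slope. In Apc-min Bmal1-null organoids 5 rose with no filter, 1 in each set and 6 with the length slope, and 1 fell under median-of-ratios scaling and 4 with the length slope. Slope differences passed for 11 under median-of-ratios scaling, 3 in each set and 15 with the length slope.

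Covariation with Hmgcs1 passed for 0 in either direction under median-of-ratios scaling, and for 9 positive and 0 negative with the length slope. Under that scaling Mvd (-0.13), Srebf2 (-0.14), Srebf1 (-0.17), Mylip (-0.21) and Soat2 (-0.021) reversed, and with the length slope Pmvk (0.26), Fdps (0.46), Scap (-0.13), Npc1l1 (-0.021) and Abcg8 (-0.78).

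Leaving out each library in turn gave 1 to 3 higher and 0 lower for Bmal1 loss with wild-type Apc, 7 to 10 and 5 to 6 in Apc-min organoids, 3 and 22 to 24 for Apc-min against control, 3 and 22 to 23 on the Bmal1-null background, and 5 to 7 and 5 for the interaction. The cosine passed for 2 to 6 in Apc-min and 2 to 7 in Apc-min Bmal1-null organoids, where 7 came without the doubted library. Slopes gave 0 to 1 in each direction in control, 0 to 1 upward and 1 to 2 downward in Bmal1-null, 5 to 8 and 1 to 2 in Apc-min, and 1 to 3 upward in Apc-min Bmal1-null organoids. Slope differences passed for 7 to 12, and covariation for 23 to 24 positive and 3 to 4 negative.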
